A study of Rattus norvegicus with 24 samples.

Results

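The genes described here build, maintain and move the cilium. They are the 42 genes of the deposited expression table whose symbols belong to 3 families found in most cilia (Ift, Bbs and Tctn, 21 genes, called general here) or to the dynein, radial spoke, tektin and Spag families of motile cilia together with Ccdc39, Ccdc40, Foxj1 and Odf3b (21 genes, called motile here). The table lists 12187 genes, and the members were taken by symbol alone, with no measured value.

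A cilium is a rod of microtubule doublets, the axoneme, that grows from a basal body at the cell surface. Most cells, neural stem cells among them, can carry a single immotile primary cilium that receives signals such as Hedgehog, and its parts are carried along the axoneme by intraflagellar transport. Ependymal cells, which line the brain ventricles and arise from radial glia, carry many motile cilia that move cerebrospinal fluid, and these need in addition dynein arms, radial spokes, a central pair and the transcription factor Foxj1, which switches on the genes for them.

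The study asked how vitamin C affects the differentiation of Sprague-Dawley rat neural stem cells. RNA-seq was done on cells differentiated with vitamin C (VC+), on cells differentiated without it (VC-) and on undifferentiated stem cells (D0), with 2 libraries in each of the 3 groups. The other 18 of the 24 samples, which hold methylation, hydroxymethylation and ChIP assays, were not analysed here. No dose, age, sex, passage or culture history of the cells is given in the labels. The libraries carry the replicate numbers 1 and 2, and the 3 libraries with 1 number are called a replicate set. The differentiated libraries of set 1 carry a D4 label and those of set 2 a D5 label, while both stem cell libraries are labelled D0. Whether a replicate is a culture or an animal of its own is not said. All p-values here therefore refer to the spread among these libraries, which may be technical.

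The values are CPM, a unit that divides each count by its library's size, and reads recovered from them summed over the listed genes to between 10299321 and 13184601 per library in set 2 and between 4811094 and 6641721 in set 1. In the differentiated libraries depth, day label and replicate number therefore move together and cannot be told apart. Both stem cell libraries carry the D0 label, so there only depth and replicate number move together. In the shallowest library 3 reads, the most that a count of 0 allows, came to 0.378 CPM. All 10 neural stem cell markers checked were detected in every library. The 2 sets also differed in genes of other cell types: 10 markers of microglia and macrophages summed to 517 CPM with vitamin C, 691 CPM without it and 260.3 CPM in stem cells of set 2, against 4.40, 4.42 and 4.41 CPM in the same groups of set 1. For 7 markers of fibroblasts and meninges the sums were 3649 CPM with vitamin C, 5579 CPM without it and 9506 CPM in stem cells of set 2, against 168, 244 and 101 CPM in the same groups of set 1. Log2 differences below are on the scale log2(CPM + 0.5), which understates differences of genes near 0.

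The promoters of several members hold the motifs that cilium regulators bind, and a few are shown because general and motile genes share one of them. RefSeq promoters of the GRCr8 build, 250 bases before to 50 bases after the start, were matched by symbol for 35 of the 42 members; Foxj1, Ift57, Ift80, Rsph1, Ift74, Bbs10 and Spag1 had no match. GTTGCC, the half-site of the X-box bound by RFX factors, was searched on both strands. It was found in the promoters of 9 of 17 general genes (52.9%), 7 of 18 motile genes (38.9%) and 12.2% of all 33469 promoters in the table. GTAAACA, a forkhead motif of the kind Foxj1 binds, was found on either strand in 0 of 17 general genes, in 2 of 18 motile genes (11.1%) and in 3.78% of all promoters. A match is a description of the letters and not of a bound site. Each window below is 100 bases, 5′ to 3′ on the strand of the gene, with the X-box half-site in capitals, which reads GGCAAC where it lies on the other strand. The windows lie just before the start of Tekt1 (chr10:57479122-57479221, - strand), Dnai2 (chr10:100258922-100259021, + strand), Tekt2 (chr5:143907725-143907824, - strand), Ift88 (chr15:35688887-35688986, + strand) and Bbs5 (chr3:74818540-74818639, + strand), the first 3 motile and the other 2 general.
Tekt1: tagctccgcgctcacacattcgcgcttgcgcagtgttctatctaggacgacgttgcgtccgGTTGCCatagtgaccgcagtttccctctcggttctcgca
Dnai2: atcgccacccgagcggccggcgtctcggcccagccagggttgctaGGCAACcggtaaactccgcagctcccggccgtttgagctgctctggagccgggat
Tekt2: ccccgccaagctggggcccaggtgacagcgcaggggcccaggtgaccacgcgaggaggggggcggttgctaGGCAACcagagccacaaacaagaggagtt
Ift88: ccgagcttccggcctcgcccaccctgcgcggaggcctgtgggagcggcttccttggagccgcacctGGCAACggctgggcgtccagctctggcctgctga
Bbs5: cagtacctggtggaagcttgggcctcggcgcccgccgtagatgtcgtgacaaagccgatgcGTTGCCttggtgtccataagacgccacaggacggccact

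The forkhead motif, here in capitals, lay between 101 and 200 bases before the start in the 2 motile genes that hold it, Dnali1 (chr5:142612071-142612170, - strand) and Tekt3 (chr10:48228659-48228758, + strand). Both windows carry it on the strand opposite to the gene, so that it reads TGTTTAC.
Dnali1: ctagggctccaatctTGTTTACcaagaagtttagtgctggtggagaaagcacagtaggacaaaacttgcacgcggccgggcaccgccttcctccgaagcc
Tekt3: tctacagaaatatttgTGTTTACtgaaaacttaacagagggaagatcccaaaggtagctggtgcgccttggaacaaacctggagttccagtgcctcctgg

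Of the 21 genes that the symbols place with the motile families, 3 stand apart by role. Spag5 encodes a protein of the mitotic spindle, Spag9 encodes a scaffold of JNK signalling, and Spag7 is placed here by its family name alone. Spag5 had 20.6 CPM with vitamin C, 13.5 CPM without it and 50.8 CPM in stem cells of set 2, against 26.6, 27.0 and 90.7 CPM in the same groups of set 1. It was lower in all 4 differentiated libraries than in both stem cell libraries, as was the summed level of 9 cell division genes, at 381 CPM with vitamin C, 267 CPM without it and 620.3 CPM in stem cells of set 2, against 371, 369.6 and 909 CPM in the same groups of set 1. The log2 difference of Spag5 was -1.51 ± 0.47 (SE, adjusted p = 1.000 by limma) with vitamin C against stem cells and -1.80 ± 0.47 (SE, adjusted p = 1.000 by limma) without it against stem cells. Spag9 had 371 CPM with vitamin C, 385 CPM without it and 450.2 CPM in stem cells of set 2, against 356, 374 and 443 CPM in the same groups of set 1. Spag7 had 33.5 CPM with vitamin C, 35.7 CPM without it and 28.8 CPM in stem cells of set 2, against 37.2, 37.0 and 45.4 CPM in the same groups of set 1. The values of these 2 genes lay close together over the 6 libraries. The other 18 motile members, which form the axoneme, help to assemble it (Spag1) or regulate its genes (Foxj1), are called axonemal below for short. Medians are given for all 21 motile genes, and for the 18 where that differs in kind.

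All 42 members reached 1 CPM in at least 2 libraries and were tested. Tekt3 and Odf3b did so only through set 2, where they were high, and stayed under 1 CPM in all 3 libraries of set 1. The plot of all members by library shows the pattern the values below follow: the axonemal genes stood highest in the 2 differentiated libraries of set 2, the general genes followed them over a smaller range, and in set 1 no group stood out in the same way.

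**Figure D1:**
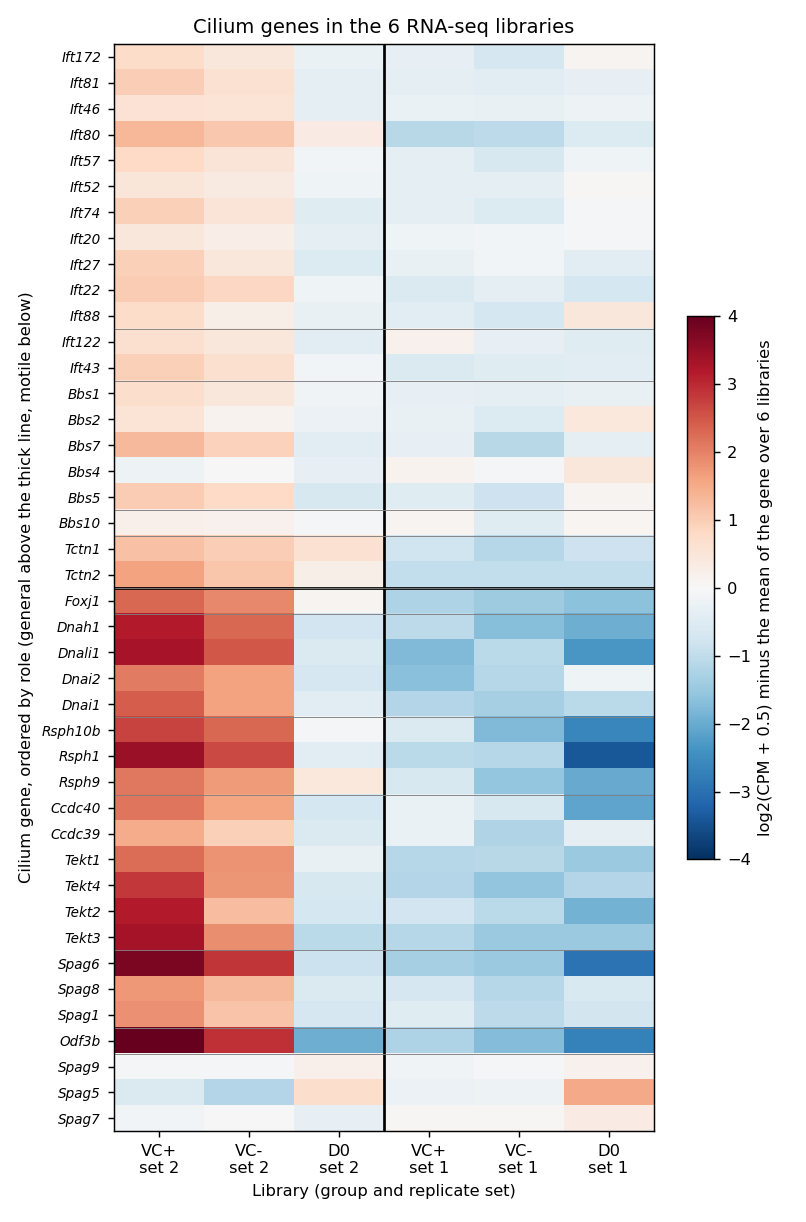
Log2(CPM + 0.5) of the 42 cilium genes (rows, ordered by role) in the 6 libraries (columns), minus each gene's mean over the libraries; red is above and blue below that mean. The VC+ and VC- columns of set 2 are red for the 18 axonemal genes, from Foxj1 to Odf3b, and Spag5 is highest in the stem cell columns.

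Differentiated cells of set 2 held far more RNA of the motile apparatus than stem cells of the same set, while in set 1 the levels lay closer together. All 18 axonemal genes were higher in VC- than in D0 cells of set 2, by 1.28 (Rsph9) to 4.88 (Odf3b) on the log2 scale, beside 50.6% of the 11823 genes tested. In set 1, 11 of the same 18 were higher in VC- than in D0 cells, beside 48.3% of all genes. Summed over the 18 genes, the level was 2228 CPM with vitamin C, 1439.5 CPM without it and 305 CPM in stem cells of set 2, against 215, 148 and 133 CPM in the same groups of set 1. Because these are bulk samples, fewer cells of a type and less RNA per cell cannot be told apart.

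Foxj1, the regulator that switches on the motile programme, had 391 CPM with vitamin C, 304 CPM without it and 87.3 CPM in stem cells of set 2, against 33.4, 29.5 and 25.1 CPM in the same groups of set 1. Every library of set 2 stood above every library of set 1, and within set 2 both differentiated libraries stood above the stem cells. Its difference between the sets, taken over the 3 groups, was 2.88 ± 0.37 (SE, adjusted p = 0.0100 by limma). Within set 2 the level with vitamin C was 4.48 times that in stem cells, and in set 1 it was 1.33 times.

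The dynein arms are the motors of the axoneme. Dnah1, a heavy chain of an inner arm, had 313 CPM with vitamin C, 170.4 CPM without it and 20.3 CPM in stem cells of set 2, against 16.6, 10.3 and 8.58 CPM in the same groups of set 1. Both differentiated libraries of set 2 lay far above the other 4, which spanned 8.58 to 20.3 CPM. Dnali1, a light intermediate chain of the inner arms, had 113 CPM with vitamin C, 63.3 CPM without it and 7.23 CPM in stem cells of set 2, against 2.87, 4.88 and 1.77 CPM in the same groups of set 1. The same 2 libraries were high, and in set 1 the library without vitamin C was the highest of its set. Dnai1, an intermediate chain of the outer arm, had 42.7 CPM with vitamin C, 23.9 CPM without it and 5.39 CPM in stem cells of set 2, against 3.06, 2.67 and 3.28 CPM in the same groups of set 1. Dnai2, its partner in the outer arm, had 47.0 CPM with vitamin C, 33.4 CPM without it and 6.44 CPM in stem cells of set 2, against 2.97, 4.53 and 9.33 CPM in the same groups of set 1. Dnai2 was below the stem cells in both differentiated libraries of set 1, at 0.318 times the stem cell level with vitamin C and 0.486 times without it, and above them in both of set 2, at 7.30 and 5.19 times.

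Genes of the radial spokes, which link the outer doublets to the central pair, were higher in set 2 than in set 1 in stem cells as well as in differentiated cells. Rsph1 had 98.8 CPM with vitamin C, 56.3 CPM without it and 6.11 CPM in stem cells of set 2, against 3.83, 3.60 and 0.378 CPM in the same groups of set 1. Rsph10b had 375 CPM with vitamin C, 280.4 CPM without it and 55.3 CPM in stem cells of set 2, against 37.8, 16.3 and 8.83 CPM in the same groups of set 1. Rsph9 had 61.5 CPM with vitamin C, 45.7 CPM without it and 18.5 CPM in stem cells of set 2, against 8.61, 4.42 and 3.03 CPM in the same groups of set 1. Within each set, for all 3 of these spoke genes, both differentiated libraries were above the stem cells. The set difference was 2.81 ± 0.23 (SE, adjusted p = 0.00410 by limma) for Rsph9, 3.31 ± 0.30 (SE, adjusted p = 0.00480 by limma) for Rsph10b and 3.74 ± 0.36 (SE, adjusted p = 0.00530 by limma) for Rsph1.

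Ccdc39 and Ccdc40 form the ruler that sets the spacing of dyneins and spokes along the doublets. Ccdc40 had 166 CPM with vitamin C, 112 CPM without it and 22.6 CPM in stem cells of set 2, against 30.4, 23.3 and 8.07 CPM in the same groups of set 1. All 4 differentiated libraries were above both stem cell libraries. Ccdc39 had 126 CPM with vitamin C, 87.1 CPM without it and 30.0 CPM in stem cells of set 2, against 37.8, 19.3 and 34.7 CPM in the same groups of set 1, so that only the differentiated libraries of set 2 stood clear of the rest. The tektins are filament proteins inside the doublet wall. Tekt1 had 83.1 CPM with vitamin C, 61.8 CPM without it and 14.0 CPM in stem cells of set 2, against 7.65, 7.67 and 5.80 CPM in the same groups of set 1. The 2 differentiated libraries of set 2 were again high and the set 1 libraries close together. Tekt2 had 29.0 CPM with vitamin C, 7.15 CPM without it and 1.51 CPM in stem cells of set 2, against 1.44, 1.05 and 0.378 CPM in the same groups of set 1. Tekt4 had 39.6 CPM with vitamin C, 18.8 CPM without it and 3.15 CPM in stem cells of set 2, against 2.01, 1.40 and 2.02 CPM in the same groups of set 1. Tekt3 had 17.0 CPM with vitamin C, 5.75 CPM without it and 0.328 CPM in stem cells of set 2, against 0.287, 0.116 and 0.126 CPM in the same groups of set 1. In these 3 tektins the VC+ library of set 2 held more than 2 times the level of any other library.

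Spag6, a protein of the central pair, had 119.8 CPM with vitamin C, 63.3 CPM without it and 4.34 CPM in stem cells of set 2, against 2.97, 2.67 and 0.631 CPM in the same groups of set 1. Spag8, a microtubule inner protein, had 62.2 CPM with vitamin C, 45.1 CPM without it and 12.0 CPM in stem cells of set 2, against 11.2, 8.02 and 11.7 CPM in the same groups of set 1. Spag1, a factor for assembly of dynein arms in the cytoplasm, had 59.2 CPM with vitamin C, 36.8 CPM without it and 10.1 CPM in stem cells of set 2, against 11.6, 7.67 and 9.71 CPM in the same groups of set 1. For Spag8 and Spag1 the set 1 libraries and the set 2 stem cells all lay within 7.67 to 12.0 CPM, and the 2 differentiated libraries of set 2 lay between 36.8 and 62.2 CPM. Odf3b, listed as Cimap1b in RefSeq and related to a protein of the outer dense fibres of sperm tails, had 85.5 CPM with vitamin C, 23.9 CPM without it and 0.328 CPM in stem cells of set 2, against 0.861, 0.465 and 0 CPM in the same groups of set 1. It was near 0 in every library other than the 2 differentiated ones of set 2.

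**Figure D2:**
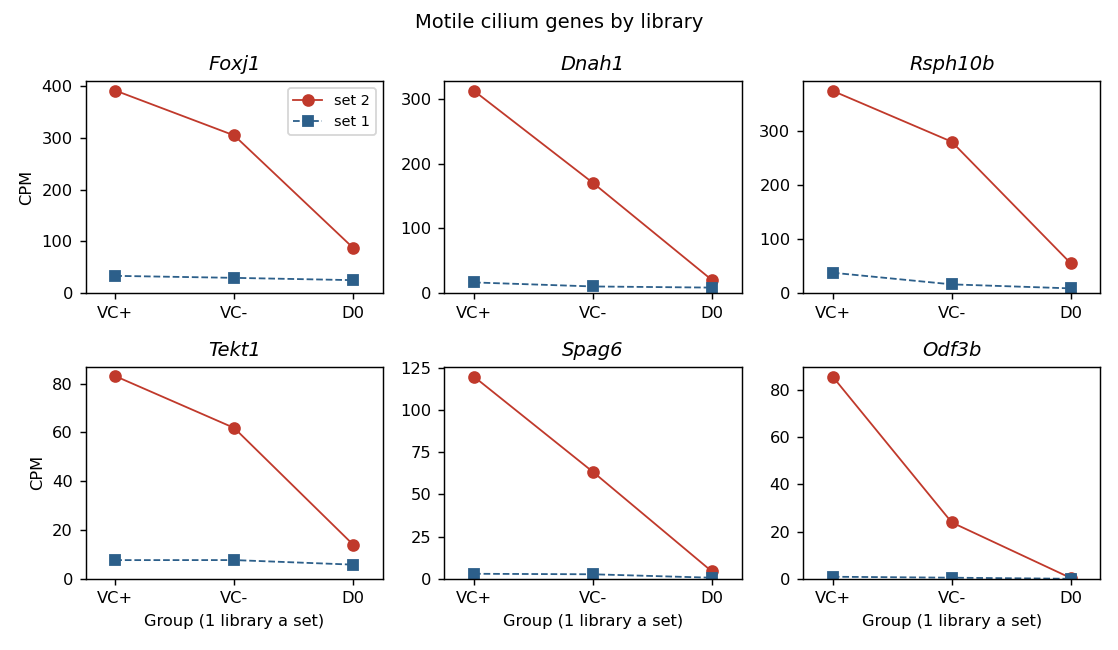
CPM of 6 motile cilium genes (linear axes from 0) by group, 1 library per point; circles joined by a solid line are set 2, squares joined by a dashed line set 1. In each panel set 2 is highest with vitamin C (391 CPM for Foxj1, 85.5 CPM for Odf3b), and set 1 stays near the bottom.

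The general genes, whose products serve immotile and motile cilia alike, stood above the stem cells in set 2 and mostly below them in set 1. In set 2 all 21 were higher in VC- than in D0 cells, by 0.24 (Bbs10) to 1.44 (Bbs5) on the log2 scale, and all 21 were higher in VC+ than in D0 cells, beside 50.4% of all genes. In set 1, 3 of 21 were higher in VC- than in D0 cells (Ift122, Ift22 and Ift27) and 18 were lower, beside 50.2% of all genes lower. In VC+ against D0 cells of set 1, 7 were higher and 14 lower, beside 49.6% of all genes lower, and the median log2 difference was -0.083, against -0.41 for VC- cells. Their summed level was 1714 CPM with vitamin C, 1409 CPM without it and 846 CPM in stem cells of set 2, against 729, 629.6 and 794 CPM in the same groups of set 1. Both differentiated libraries were below the stem cells in set 1 and above them in set 2 for 14 of the 21 general genes and 5 of the 21 motile genes (Spag7 among them), beside 12.3% of all genes tested, and the reverse held for 0 of the 42, beside 12.0% of all genes. Both stood above the stem cells in both sets for 11 motile and 3 general genes, beside 19.4% of all genes, and below them in both sets for Spag5 and Spag9, beside 20.5%.

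Intraflagellar transport runs on trains of IFT-B proteins, which kinesin carries to the tip, and IFT-A proteins, which travel back with dynein. Ift88, an IFT-B core protein without which cilia fail to form in mouse, had 38.3 CPM with vitamin C, 26.8 CPM without it and 18.5 CPM in stem cells of set 2, against 16.7, 13.6 and 31.4 CPM in the same groups of set 1. The stem cells were the highest library of set 1 and the lowest of set 2. Ift172, also of IFT-B, had 149 CPM with vitamin C, 123 CPM without it and 73.6 CPM in stem cells of set 2. In the same groups of set 1 it had 70.6, 55.2 and 95.3 CPM, in the same order as Ift88. Ift81 had 115 CPM with vitamin C, 88.4 CPM without it and 44.4 CPM in stem cells of set 2, against 44.3, 42.9 and 46.0 CPM in the same groups of set 1. Ift74, its partner in binding tubulin, had 56.0 CPM with vitamin C, 41.0 CPM without it and 20.4 CPM in stem cells of set 2, against 21.7, 19.5 and 27.5 CPM in the same groups of set 1. For both, the differentiated libraries of set 2 lay above the other 4. Ift80 had 78.2 CPM with vitamin C, 65.8 CPM without it and 38.6 CPM in stem cells of set 2, against 14.1, 14.6 and 20.8 CPM in the same groups of set 1, and Ift22, a small GTPase of the train, had 46.6 CPM with vitamin C, 41.4 CPM without it and 20.2 CPM in stem cells of set 2, against 15.2, 17.2 and 13.9 CPM in the same groups of set 1. These 2 were higher in set 2 than in set 1 in every group. Ift46 had 89.0 CPM with vitamin C, 87.4 CPM without it and 44.9 CPM in stem cells of set 2, against 48.9, 48.0 and 51.8 CPM in the same groups of set 1, with the 2 differentiated libraries of set 2 highest.

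Of the IFT-A genes, Ift122 had 164 CPM with vitamin C, 143 CPM without it and 77.6 CPM in stem cells of set 2, against 119.8, 82.9 and 75.4 CPM in the same groups of set 1. It was higher in all 4 differentiated libraries than in either stem cell library. Ift43 had 29.1 CPM with vitamin C, 23.3 CPM without it and 13.4 CPM in stem cells of set 2, against 9.76, 10.2 and 10.7 CPM in the same groups of set 1. The 4 IFT-B genes not described singly, Ift20, Ift27, Ift52 and Ift57, were higher in VC- than in D0 cells of set 2 by 0.51 (Ift52) to 1.00 (Ift27) on the log2 scale.

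The BBSome is a coat that moves membrane proteins out of the cilium. Bbs5 had 29.2 CPM with vitamin C, 25.1 CPM without it and 8.94 CPM in stem cells of set 2, against 10.0, 7.79 and 15.3 CPM in the same groups of set 1. Bbs2 had 75.4 CPM with vitamin C, 56.6 CPM without it and 44.1 CPM in stem cells of set 2, against 41.7, 35.3 and 69.2 CPM in the same groups of set 1. In both, the stem cells stood highest in set 1 and lowest in set 2. Bbs7 had 79.2 CPM with vitamin C, 61.0 CPM without it and 23.6 CPM in stem cells of set 2, against 25.3, 14.6 and 24.7 CPM in the same groups of set 1. Bbs1 had 138 CPM with vitamin C, 114 CPM without it and 76.5 CPM in stem cells of set 2, against 67.5, 63.6 and 68.4 CPM in the same groups of set 1. Both stood highest in the 2 differentiated libraries of set 2. Bbs10, a chaperonin-like protein that helps to assemble the BBSome, had 11.1 CPM with vitamin C, 10.9 CPM without it and 9.13 CPM in stem cells of set 2, against 10.4, 6.74 and 10.1 CPM in the same groups of set 1, and its 6 values lay close together. Bbs4, a BBSome subunit, had the lowest difference between set 2 and set 1 of the 21 general genes in every group, at -0.34 in VC+, 0.033 in VC- and -0.81 in D0 cells on the log2 scale.

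The tectonics Tctn1 and Tctn2 sit at the transition zone, the gate at the base of the cilium. Tctn1 had 191 CPM with vitamin C, 167 CPM without it and 129.8 CPM in stem cells of set 2, against 49.0, 38.0 and 47.9 CPM in the same groups of set 1. Tctn2 had 204 CPM with vitamin C, 144 CPM without it and 77.8 CPM in stem cells of set 2, against 33.5, 32.9 and 33.3 CPM in the same groups of set 1. For both, every library of set 2 was above every library of set 1, stem cells included. Their set differences were 1.83 ± 0.18 (SE, adjusted p = 0.00530 by limma) for Tctn1 and 1.97 ± 0.28 (SE, adjusted p = 0.0126 by limma) for Tctn2.

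**Figure D3:**
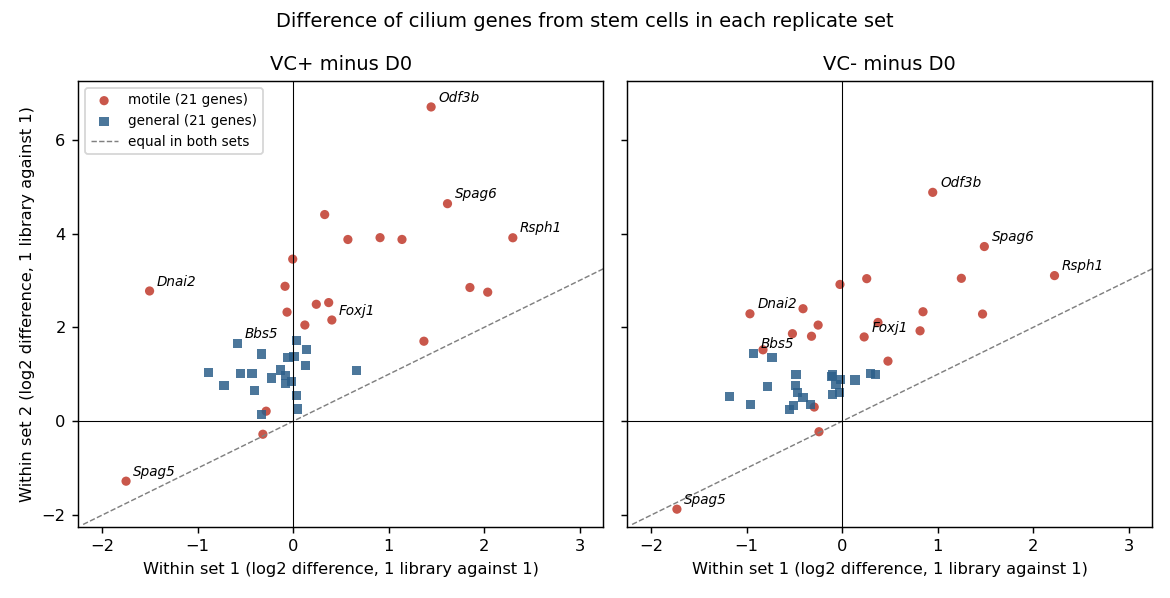
Log2 difference from stem cells within set 2 (vertical) against that within set 1 (horizontal) for the 42 genes, VC+ minus D0 at left and VC- minus D0 at right; circles are motile, squares general genes, and the dashed line marks equal differences. General genes lie above 0 on the vertical axis, 21 of 21 in both panels, and 18 of 21 lie left of 0 on the horizontal axis at right.

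Over both sets, in fits without a replicate term, none of these differences from stem cells passed the test. In VC- against D0 cells limma called 0 of 42 members and 0 of 11823 genes. At an unadjusted p under 0.05 it called 1 member (Spag5) and 382 genes, 3.23% of those tested. EdgeR called 0 genes and DESeq2 71 genes, with 0 members in either. In VC+ against D0 cells limma called 0 members and 0 genes. At an unadjusted p under 0.05 it called 2 members (Ift122 and Spag5) and 507 genes, 4.29%. EdgeR again called 0 genes, and DESeq2 called 137 genes and 0 members. The median log2 difference of VC+ from D0 cells was 0.41 for general and 1.54 for motile genes, and that of VC- from D0 cells 0.25 for general and 1.01 for motile genes. Within sets, the motile median for VC- against D0 cells was 2.10 in set 2 and 0.23 in set 1, and the general median was 0.76 in set 2 and -0.41 in set 1. Over both sets but without VC- library 2 the VC- medians were -0.34 for motile and -0.30 for general genes, and without VC- library 1 they were 2.67 and 0.85. Without VC+ library 2 the VC+ medians were 0.13 for motile and -0.14 for general genes, and without VC+ library 1 they were 3.20 and 1.09. Without D0 library 2 the motile median for VC- cells was 1.84.

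Groups that do not overlap were few. Both VC- libraries were above both D0 libraries for Ift122, Ift27, Ccdc40 and Odf3b, 4 of 42 beside 13.8% of all genes, and below them for Spag5 and Spag9, beside 13.2%. Both VC+ libraries were above both D0 libraries for 8 of 42 members, beside 14.2% of all genes, and below them for the same 2, beside 13.2%. Read against these shares, 4 and 8 of 42 lie near those of all genes, and 2 of 42 lies below. Ccdc40, with the largest such difference among members after Odf3b, had a log2 difference of 2.35 ± 1.15 (SE, adjusted p = 1.000 by limma) for VC+ against D0 cells, and Odf3b one of 4.07 ± 2.43 (SE, adjusted p = 1.000 by limma). The 2 comparisons share their stem cell libraries.

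The difference between the 2 replicate sets did pass the test by limma. Calls against stem cells by DESeq2 with a replicate block are given in the last section. Taken over the 3 groups, 15 of 42 members were called higher in set 2, beside 17.4% of all genes, and 1 was called lower (Spag5, -0.72 ± 0.18 (SE, adjusted p = 0.0454 by limma)), beside 7.70%. The 15 held 11 axonemal genes (Foxj1, Dnah1, Dnai1, Dnali1, Rsph1, Rsph9, Rsph10b, Ccdc40, Tekt1, Tekt2 and Spag6). The other 4 were general genes (Tctn1, Tctn2, Ift80 and Ift22), and 4 of 21 general genes lies near the 17.4% of all genes. The size was 3.85 ± 0.61 (SE, adjusted p = 0.0159 by limma) for Spag6, 3.12 ± 0.63 (SE, adjusted p = 0.0280 by limma) for Dnah1, 1.81 ± 0.33 (SE, adjusted p = 0.0225 by limma) for Ift80 and 1.12 ± 0.25 (SE, adjusted p = 0.0345 by limma) for Ift22. The median over all 21 motile genes was 2.50, against 0.66 for the 21 general genes. By group, the motile median was 3.53 in VC+, 2.94 in VC- and 0.73 in D0 cells, and the general median was 1.20, 1.03 and -0.12 in the same order. Set 2 was higher in all 3 groups for 17 motile and 8 general genes, 25 of 42, beside 32.5% of all genes. EdgeR called 17 members and DESeq2 26. These 2 counts stand without the share of all genes and are not read as a result about the members. With 1 library left out, the calls among members and among all genes both moved widely, so they depend on single libraries.

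The mean of both differentiated libraries minus the stem cell library was also compared between the sets, a test chosen after the data were seen. The difference was called for 20 of 42 members, all of them higher in set 2, beside 2.56% of the 11823 genes. For 0 members it was called lower in set 2, beside 4.09% of all genes. Of the 20, Odf3b and Tekt3 passed the filter on low values only through set 2, which favours such a call, and 18 of the other 40 members were called. Called were 12 motile genes (Ccdc39, Dnah1, Dnai1, Dnai2, Foxj1, Odf3b, Spag1, Spag6, Spag8, Tekt1, Tekt3 and Tekt4) and 8 general genes (Bbs2, Bbs5, Bbs7, Ift172, Ift74, Ift80, Ift81 and Ift88). The size was 2.89 ± 0.27 (SE, adjusted p = 0.00836 by limma) for Dnah1, 3.77 ± 0.52 (SE, adjusted p = 0.0170 by limma) for Dnai2, 2.30 ± 0.36 (SE, adjusted p = 0.0216 by limma) for Bbs5 and 1.81 ± 0.31 (SE, adjusted p = 0.0262 by limma) for Ift88. The median was 2.14 over motile genes, 1.06 over general genes and 0.00882 over all genes. The 3 radial spoke genes, Ccdc40, Dnali1, Tekt2 and both tectonics were not called. This test rests on 1 stem cell library per set and 1 residual degree of freedom, left by counting vitamin C as the same step in both sets. Without that term in the fit 0 members and 0 genes were called, with 30 members and 2186 genes at an unadjusted p under 0.05. EdgeR called 15 members and DESeq2 13, and the genes that each called are given in the last section.

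Vitamin C went with a higher level of most cilium genes inside each set, by an amount smaller than the difference between sets. In set 2, 39 of 42 members were higher in the VC+ than in the VC- library, beside 52.8% of all genes; Bbs4, Spag7 and Spag9 were not. In set 1, 32 of 42 were higher, beside 50.0% of all genes. In both sets 30 of 42 were higher, beside 30.0% of all genes, and 1 (Spag9) was lower, beside 26.4%. The 30 were 15 general and 15 motile genes. The median log2 difference was 0.60 in set 2 and 0.32 in set 1 for motile genes, and 0.27 and 0.15 for general genes in the same order. Markers of astrocytes were higher with vitamin C in the same libraries. The 9 markers, all detected in every library, summed to 10193 CPM with vitamin C, 4419 CPM without it and 3527 CPM in stem cells of set 2, against 6451, 2203 and 1617 CPM in the same groups of set 1. Their median log2 difference between VC+ and VC- cells was 1.25 in set 2 and 1.30 in set 1. For 7 of the 9 both VC+ libraries were above both VC- libraries, beside 8.15% of all genes. Their part in the difference of the cilium genes was not tested.

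Within set 2 the largest steps were those of Tekt2, Odf3b, Tekt3 and Tekt4. Tekt2 had 29.0 CPM with and 7.15 CPM without vitamin C in set 2, a ratio of 4.06 (exact 95% interval 3.36 to 4.93). In set 1 it had 1.44 and 1.05 CPM, a ratio of 1.37 (exact 95% interval 0.562 to 3.55). The set 1 interval spans 1, so a difference was not detectable at that depth. Odf3b had a ratio of 3.58 (exact 95% interval 3.23 to 3.98) in set 2 and Tekt3 one of 2.96 (exact 95% interval 2.38 to 3.71). Tekt4 had 2.11 (exact 95% interval 1.86 to 2.40), Spag6 1.89 (exact 95% interval 1.76 to 2.03) and Dnah1 1.84 (exact 95% interval 1.76 to 1.91) in set 2. These intervals cover counting error only, with 1 library on each side. Dnah1 was also higher with vitamin C in set 1, at 1.60 (exact 95% interval 1.23 to 2.09).

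Foxj1 had the smallest difference of the 18 axonemal genes in set 2. Its VC+ to VC- ratio was 1.28 (exact 95% interval 1.24 to 1.33) in set 2 and 1.13 (exact 95% interval 0.959 to 1.33) in set 1. Rsph10b, Rsph9 and Ccdc39 had the larger ratio in set 1, at 2.32 (exact 95% interval 1.91 to 2.84), 1.95 (exact 95% interval 1.32 to 2.93) and 1.96 (exact 95% interval 1.63 to 2.36), while in set 2 they had 1.34 (exact 95% interval 1.29 to 1.38), 1.35 (exact 95% interval 1.23 to 1.47) and 1.44 (exact 95% interval 1.36 to 1.54). Dnali1 went in opposite directions, at 1.78 (exact 95% interval 1.66 to 1.91) in set 2 and 0.588 (exact 95% interval 0.355 to 0.962) in set 1. Among general genes Bbs7 had the largest mean log2 difference, with ratios of 1.30 (exact 95% interval 1.20 to 1.40) in set 2 and 1.72 (exact 95% interval 1.39 to 2.15) in set 1.

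**Figure D4:**
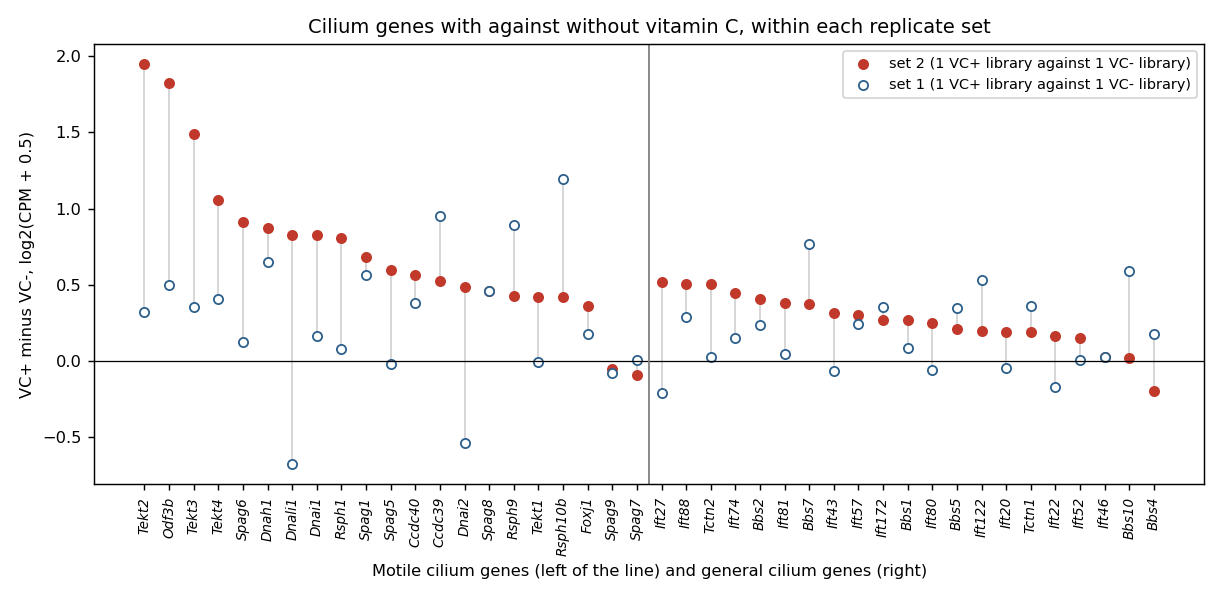
Log2 difference between the VC+ and the VC- library within set 2 (filled) and set 1 (open) for each of the 42 genes, motile at left and general at right, each sorted by set 2. In set 2 all but Bbs4, Spag7 and Spag9 lie above 0, and the largest are Tekt2 (1.95), Odf3b (1.82) and Tekt3 (1.49).

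Over both sets limma called 0 of 42 members and 0 of 11823 genes between VC+ and VC- cells. At an unadjusted p under 0.05 it called 0 members and 62 genes, 0.524% of those tested. EdgeR called 0 genes, and DESeq2 called 6 genes and 0 members. With the replicate set as a term, limma called 0 genes, edgeR 0 and DESeq2 32, with 0 members in each; at an unadjusted p under 0.05 edgeR then called 2 members, Tekt2 and Odf3b. The log2 difference of Odf3b was 1.16 ± 2.43 (SE, adjusted p = 1.000 by limma), that of Tekt2 1.14 ± 1.55 (SE, adjusted p = 1.000 by limma) and that of Foxj1 0.27 ± 1.63 (SE, adjusted p = 1.000 by limma). These SE come from the fit without a replicate term, so they take in the difference between sets. They do not measure how far the vitamin C difference varied within sets, which for Foxj1 was 0.36 in set 2 and 0.17 in set 1. The median was 0.26 for general genes, 0.50 for motile genes and 0.018 for all genes tested. With 1 library left out the set difference enters the comparison, so the medians then do not bear on the direction within sets. Without VC+ library 2 they were -0.35 for general and -1.27 for motile genes, and without VC- library 1 -0.27 and -0.96. Without VC+ library 1 they were 0.85 and 2.04, and without VC- library 2 0.73 and 1.94. Within sets the general medians were 0.15 in set 1 and 0.27 in set 2, and the motile medians 0.32 and 0.60. In 0 of 42 members were both VC+ libraries above both VC- libraries, beside 8.15% of all genes, and in 1 (Spag9) both were below, beside 7.82%. Set 2 was above set 1 for 39 of 42 members in VC+ cells and for 40 in VC- cells. Such a set difference makes the groups overlap, so these counts do not bear on the differences within sets.

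Other genes of the same structures were taken from lists of textbook cilium genes. Of 59 motile genes outside the rule, among them dynein assembly factors, nexin-dynein regulators and multiciliation regulators, 39 were tested. All 39 were higher in VC- than in D0 cells of set 2, beside 50.6% of all genes, and 25 in set 1, beside 48.3%, and the median log2 difference was 2.30 in set 2 and 0.25 in set 1. With against without vitamin C, 38 of 39 were higher in set 2, beside 52.8% of all genes, and 27 in set 1, beside 50.0%. Between sets 21 of the 39 were called higher in set 2, beside 17.4% of all genes. The difference of differentiated from stem cells was called higher in set 2 for 22, beside 2.56%. Of the 39, 3 stayed under 1 CPM in all libraries of set 1 and so passed the filter only through set 2, and among the other 36 these counts were 21 and 20. Drc1, of the nexin-dynein regulatory complex, had 268 CPM with vitamin C, 202 CPM without it and 46.0 CPM in stem cells of set 2, against 40.6, 16.4 and 9.46 CPM in the same groups of set 1. Zmynd10, a dynein assembly factor, had 291 CPM with vitamin C, 170.3 CPM without it and 29.3 CPM in stem cells of set 2, against 31.0, 23.4 and 17.0 CPM in the same groups of set 1. Both had their highest values in the differentiated libraries of set 2.

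Of 58 general genes outside the rule, 49 were tested. In VC- against D0 cells 39 were higher in set 2, beside 50.6% of all genes, and 14 in set 1, beside 48.3%, with medians of 0.39 and -0.27. Between sets 7 of 49 were called higher in set 2, a smaller share than the 17.4% of all genes, and 0 lower. The difference of differentiated from stem cells was called higher in set 2 for 11 of 49, beside 2.56% of all genes. By compartment, that difference was called for 2 of 6 further IFT-B genes and 3 of 9 IFT-A and trafficking genes. It was called for 1 of 8 BBSome partners, 5 of 18 transition zone and basal body genes and 0 of 8 ciliary membrane genes. Among the membrane genes Smo, the Hedgehog transducer, had 123 CPM with vitamin C, 121 CPM without it and 166 CPM in stem cells of set 2, against 78.7, 74.8 and 83.5 CPM in the same groups of set 1. Within each set Smo was highest in stem cells, unlike the IFT genes of set 2.

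Ependymal markers were high in the same libraries as the axonemal genes. Of 9 such markers that are in neither motile list, 7 were in the table, and they summed to 342 CPM with vitamin C, 197 CPM without it and 18.5 CPM in stem cells of set 2, against 12.2, 10.6 and 9.71 CPM in the same groups of set 1. Being in neither list does not place the products of these genes outside the motile cilium, and that was not checked. Ccdc153 made up a large part of the set 2 sums. It had 151 CPM with vitamin C, 88.8 CPM without it and 6.90 CPM in stem cells of set 2, against 2.68, 3.02 and 5.30 CPM in the same groups of set 1. Among the 7 markers Sntn was at 0 in both stem cell libraries and in both differentiated libraries of set 1. Tmem212 was also at 0 in stem cells of set 1, and Rarres2 in VC- cells of set 1. The median log2 difference of VC- from D0 cells was 2.40 in set 2 and 0.32 in set 1 over the 6 tested, against 2.29 and 0.32 for the 18 axonemal genes. Of 8 choroid plexus markers 6 were in the table and summed to 117 CPM with vitamin C, 61.5 CPM without it and 48.8 CPM in stem cells of set 2, against 8.42, 6.51 and 4.54 CPM in the same groups of set 1. Ttr, which defines that tissue, was at 0 in both stem cell libraries and in VC+ cells of set 1. It was detected in VC- cells of set 1 and in both differentiated libraries of set 2. The median difference of these markers from D0 cells in set 2 was 0.28 without vitamin C and 1.21 with it. In set 1 it was 0.37 and -0.036 in the same order. In set 2 Folr1 had 24.6 CPM with vitamin C, 16.8 CPM without it and 1.51 CPM in stem cells. Clic6 had 76.7, 30.9 and 25.2 CPM in the same groups, and both genes stayed under 1 CPM in set 1. The part of these cells in the results was not tested. The markers of microglia and of fibroblasts given above were also higher in set 2, in stem cells as well as in differentiated cells, while markers of the oligodendrocyte lineage were higher in set 1, at 853 CPM with vitamin C, 1123 CPM without it and 802 CPM in stem cells of set 2, against 8919, 12455 and 2310.3 CPM in the same groups of set 1.

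**Figure D5:**
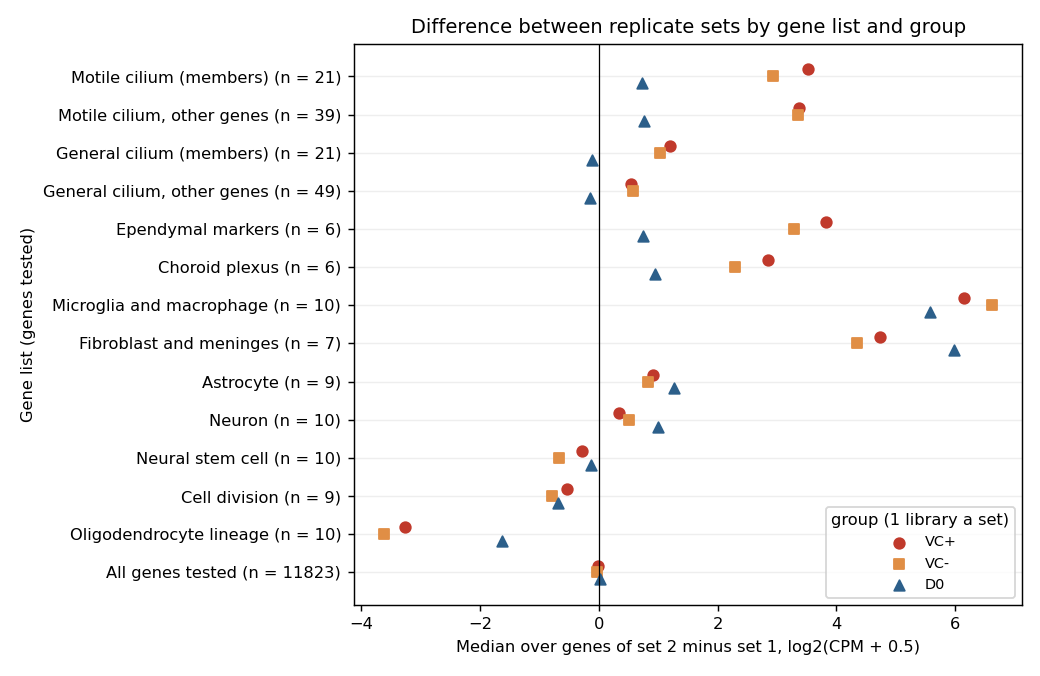
Median over the tested genes of each list of the log2 difference between set 2 and set 1, by group (circles VC+, squares VC-, triangles D0). Motile genes, members (3.53 in VC+) and others, and ependymal markers lie far right in the differentiated groups and near 1 in stem cells, whereas microglia and fibroblast markers lie right in all 3 groups and the median of all genes at 0.

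The 5 genes whose values over the 6 libraries were most like those of Foxj1, among all genes tested, were Barhl1, Pdlim1, Rilpl2, Enkd1 and Hspa12a, with Pearson correlations of log2(CPM + 0.5) of 0.998 to 0.999. The libraries share sets and depths, so this describes likeness in these 6 libraries only. Rilpl2, a gene of ciliary membrane trafficking, had 52.5 CPM with vitamin C, 50.8 CPM without it and 27.1 CPM in stem cells of set 2, against 16.1, 15.6 and 13.9 CPM in the same groups of set 1. The median correlation with Foxj1 was 0.943 over the other 20 motile members and 0.842 over the 21 general ones. The lowest were -0.65 (Spag5) among motile and -0.57 (Bbs4) among general members. Many other genes reached the medians: Spag8, at 0.944, ranked 748 and Ift52, at 0.842, ranked 1972 among the genes tested.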

How the data were processed

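RNA-seq was analysed in 6 libraries, 2 per group. The authors deposited CPM per gene. Per the submitters' processing notes, the build was rn5 and the tools were deepTools 2.4.2, HOMER 4.9.1, edgeR 3.12.1, STAR 2.5.1, Bowtie2 2.1.0 and CASAVA 1.7, with no role stated. Per the labels' protocols, libraries were made with the TruSeq RNA kit. The read counter, strand setting, annotation and gene filter are not given in the sources used here. The deposited CPM were whole multiples of 1 step per library for 100% of values (tolerance 1e-06), so whole reads were recovered; the listed genes held 60.2% to 67.7% of the reads behind the authors' scaling, and the lowest maximum of any listed gene was 0.967 CPM. Per-value columns of other samples numbered 0. Reads that near-identical copies share could be split between them by the counter.

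The 11823 genes that reached 1 CPM in 2 or more libraries were tested with limma 3.58.1 (trend, two-sided, R 4.3.3) on log2(CPM + 0.5) at a Benjamini-Hochberg adjusted p under 0.05, with 3 groups in 1 fit and 3 residual degrees of freedom. The set difference was fitted with group and set terms. The smallest p of an exact permutation test of 2 against 2 libraries is 0.333, and none was used. VC+ and VC- libraries of 1 number share a day label, and their deviations from the group means correlated at 0.914 over 11823 genes, so that comparison was also fitted with a replicate block. Alternatives were other pseudocounts, filters and scalings, each library left out, and count tests of the recovered reads by DESeq2 1.42.0 and edgeR 4.0.16. The code was tested on simulated data. The comparison of the differentiation effect between sets and DESeq2 with a block were chosen after the data were seen, and the members and lists were chosen with earlier results of these data known.

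Values per library are given for members that passed any test, the 3 of highest mean CPM per role, the largest non-overlapping ones and Foxj1, and for other lists for the 2 of highest mean CPM. Smo, Drc1 and Zmynd10 are among those. Dynlrb2, which a motile list also holds, was left out of the ependymal markers after the data were seen. Bbs4 and the other IFT-B genes were given by single values or ranges. Promoters are RefSeq sequences of the GRCr8 build, matched by symbol.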

Additional observations from a re-analysis of the deposited data

Results flagged for a closer look

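The difference of differentiated from stem cells was itself different between the 2 replicate sets for the following members, each given as set 2 minus set 1 on the log2 scale, by limma at an adjusted p under 0.05. Among motile genes it was 3.77 for Dnai2, 3.13 for Tekt4, 2.89 for Dnah1, 2.63 for Dnai1 and 2.63 for Spag6. It was 2.39 for Spag8, 2.19 for Spag1, 2.14 for Ccdc39, 1.94 for Tekt1 and 1.66 for Foxj1. It was 4.59 for Odf3b and 3.51 for Tekt3, which passed the filter on low values only through set 2, where they were high, so that these 2 calls were favoured by the filter. Among general genes it was 2.30 for Bbs5, 1.89 for Bbs7, 1.81 for Ift88, 1.62 for Ift74, 1.48 for Ift172, 1.41 for Ift80, 1.40 for Bbs2 and 1.25 for Ift81. None of these calls was made once vitamin C was left out of the fit.

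In 8 further members both differentiated libraries lay below the stem cells in set 1 and above them in set 2, and the difference between sets did not pass that test. It was 1.11 for Ift57, 1.06 for Ift46, 1.03 for Ift43, 0.99 for Ift52, 0.77 for Bbs1, 0.76 for Ift20, 0.65 for Bbs4 and 0.55 for Spag7 on the log2 scale. What sets the replicate sets apart was not tested. Replicate number and depth cannot be told apart, nor can day label be told from them in differentiated cells.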

How the results depend on the processing

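No member changed direction past a threshold under any alternative, and other pseudocounts, filters and scalings moved no count of calls by over 1.5 times. For VC+ against VC- cells DESeq2 called 6 genes, and 32 with a replicate block, against 0 by limma. For VC- against D0 cells DESeq2 called 71 genes, and for VC+ against D0 cells 137. VC- and D0 libraries share only a replicate number, as do VC+ and D0 libraries; deviations correlated at 0.730 for VC- and D0 cells and at 0.688 for VC+ and D0 cells. With that number as a replicate block limma called 0 members in both comparisons. DESeq2 with the block called 457 genes and 6 members in VC- against D0 cells (higher Ccdc40, Odf3b, Rsph1, Rsph10b and Spag6, beside 1.58% of all genes; lower Spag5, beside 2.28%). It called 772 genes and 11 members in VC+ against D0 cells (higher the same 5 with Dnah1, Dnali1, Rsph9, Tekt2 and Tekt3, beside 3.59%; lower Spag5, beside 2.93%).

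With 1 library left out in turn, a group of 1 library takes its spread from the other groups, and the set difference enters the comparison. The general median for VC+ against VC- cells then ranged from -0.35 to 0.85 and the motile median from -1.27 to 2.04. The motile median for VC- against D0 cells ranged from -0.34 to 2.67. Between sets, 0 to 5098 genes and 0 to 37 members were called, and DESeq2 on all libraries called 26 members. For the difference of differentiated from stem cells between sets, edgeR called 450 genes and DESeq2 500 genes and 13 members. With no vitamin C term 0 genes and 0 members were called, and with 1 differentiated library also left out 0 to 338 genes (214 without VC+ library 1) and 0 to 4 members (2 without VC- library 1), with a motile median of up to 2.53. It could not be fitted without a stem cell library. The cause of these shifts was not tested. Depth limits Tekt3 and Odf3b, which stayed under 1 CPM in set 1. It also limits other members with few reads there, such as Rsph1 and Tekt2 with 3 reads and Spag6 with 5 reads in stem cells of set 1.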
